A study of Mus musculus with 11 samples.

Results

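The enzymes and proteins that use glutathione and thioredoxin to keep cells reduced, with the superoxide dismutases, the heme oxygenases, the quinone reductase Nqo1 and the transcription factor NRF2 (gene Nfe2l2), were followed in mouse 3T3-L1 cells exposed to 3 thiazolidinediones. Members were taken by gene symbol: glutathione synthesis and reduction (Gclc, Gclm, Gss, Gsr), the glutathione peroxidases (Gpx), the glutathione transferases (Gst and Mgst), the peroxiredoxins (Prdx), the thioredoxins with their reductases and the binding protein Txnip, and the superoxide dismutases (Sod). They came to 59 of the 12422 probe sets that are not array controls, and to 43 of 8252 genes. In 58 of the 59 probe sets the signal was above a floor of 73.7 on at least 2 arrays, so these 58 were tested and still cover all 43 genes. The untested probe set was another one for Prdx2. Both probe sets that hold Prdx1 also hold a second gene, Gm21399, so Prdx1 was not taken as a member.

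Total RNA of 11 samples was measured, 1 array per sample, after 24 h of treatment. The groups were 20 µM pioglitazone (2 arrays, replicates 1 and 2), 1 µM rosiglitazone (3 arrays, replicates 1, 2 and 4), 20 µM troglitazone (3 arrays, replicates 1, 2 and 4) and vehicle, 0.1% DMSO (3 arrays, replicates 1, 2 and 4). The titles split the arrays into 2 sets: replicates 1 and 2 of each group form set 1, and replicate 4 of each group except pioglitazone forms set 2. 3T3-L1 is a single mouse fibroblast line that can be turned into fat cells; the labels do not say whether it had been here, nor whether the replicates were separate cultures, so the p-values measure only the spread between these samples. Of 12 adipocyte markers 10 were tested, with mean vehicle signals that spanned 497.5 ± 116.3 for Cd36, a fatty acid receptor, to 46880 ± 4760 for Adipoq, the hormone adiponectin (SD, n = 3), and 2355 ± 410.6 for Fabp4, a fatty acid carrier. All 3 drugs bind and activate PPARγ, a nuclear receptor of fat cells. Pioglitazone and rosiglitazone have a pyridine ring where troglitazone has the chroman ring found in vitamin E.

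Glutathione is a small peptide made from glutamate, cysteine and glycine, and its free thiol is spent by peroxidases to remove peroxides and by transferases to tag electrophiles. Thioredoxin does the parallel work for protein disulphides and peroxiredoxins, and both systems are recharged with NADPH by their reductases. When electrophiles or oxidants modify its partner KEAP1, NRF2 accumulates and switches on many of these genes through a short DNA element in their promoters, the antioxidant response element. Fat cells carry large amounts of unsaturated lipid, whose oxidation yields reactive aldehydes that these transferases can detoxify.

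Median signals per array ranged from 162.8 to 243.5, lowest on the 3 arrays of set 2. Rosiglitazone replicate 2 had the lowest median correlation with the other arrays, 0.833, the others being at 0.874 to 0.896. Pioglitazone replicate 2 had the highest ratio of 3' to 5' signal for the beta-actin control, 4.86. The set 2 arrays were at 3.74 to 3.9 and the other set 1 arrays at 1.79 to 2.27, so this ratio differed between the sets too. Member values lay at or under the floor in 11.1% of cases, against 20.99% for all tested probe sets, and 41 member probe sets of 34 genes were above it on every array. Changes are log2 differences from limma with a term for the set, ± standard error, and "rose", "fell" or "passed" means a Benjamini-Hochberg adjusted p under 0.05 over all 11739 tested probe sets. Where the arrays of a group are said to lie above or below others, this describes 2 or 3 arrays and is not a test. The share of all probe sets with ranges apart is not given here, so such statements cannot be weighed against it.

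The promoters of 3 of the 4 members that passed any comparison are shown, with those of Gclm and Txnrd1, a gene of glutathione synthesis and a thioredoxin reductase, as examples of windows that hold the antioxidant response element core. Each runs 5′ to 3′ along the gene's own strand, with 250 bases before the gene's start and 50 after it (RefSeq, GRCm38.p6). Capitals mark matches to the core TGACNNNGC, searched on both strands; both matches here are on the opposite strand and so read as its reverse complement. Windows with no capitals hold no match.
Gstm1, minus strand, chr3:108017924-108018223, 1 of 2 windows of this gene: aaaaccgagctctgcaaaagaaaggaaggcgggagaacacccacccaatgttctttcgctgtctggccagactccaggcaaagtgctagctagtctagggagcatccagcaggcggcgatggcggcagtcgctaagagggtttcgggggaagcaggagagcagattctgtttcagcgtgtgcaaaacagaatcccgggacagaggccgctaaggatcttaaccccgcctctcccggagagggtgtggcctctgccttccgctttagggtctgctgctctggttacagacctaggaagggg
Gsto1, plus strand, chr19:47854723-47855022: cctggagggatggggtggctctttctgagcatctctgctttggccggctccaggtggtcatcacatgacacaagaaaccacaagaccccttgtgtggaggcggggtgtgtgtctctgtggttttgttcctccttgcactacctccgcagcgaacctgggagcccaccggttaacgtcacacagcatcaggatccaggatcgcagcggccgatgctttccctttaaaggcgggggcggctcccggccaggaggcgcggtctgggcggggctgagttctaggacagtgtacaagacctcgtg
Mgst3, minus strand, chr1:167393792-167394091: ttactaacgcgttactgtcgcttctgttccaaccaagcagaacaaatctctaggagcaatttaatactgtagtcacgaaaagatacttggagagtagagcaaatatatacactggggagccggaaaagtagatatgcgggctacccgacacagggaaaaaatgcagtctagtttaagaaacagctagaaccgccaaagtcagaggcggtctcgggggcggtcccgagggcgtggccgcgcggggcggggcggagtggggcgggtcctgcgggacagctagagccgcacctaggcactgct
Gclm, plus strand, chr3:122245307-122245606, match from base 117: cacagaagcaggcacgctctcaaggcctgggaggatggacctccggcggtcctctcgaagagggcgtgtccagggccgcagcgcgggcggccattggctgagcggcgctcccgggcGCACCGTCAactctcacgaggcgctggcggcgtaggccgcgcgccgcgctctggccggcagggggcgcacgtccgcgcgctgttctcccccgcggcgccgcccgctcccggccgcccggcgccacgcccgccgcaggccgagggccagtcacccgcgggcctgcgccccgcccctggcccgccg
Txnrd1, plus strand, chr10:82858956-82859255, 1 of 3 windows of this gene, match from base 159: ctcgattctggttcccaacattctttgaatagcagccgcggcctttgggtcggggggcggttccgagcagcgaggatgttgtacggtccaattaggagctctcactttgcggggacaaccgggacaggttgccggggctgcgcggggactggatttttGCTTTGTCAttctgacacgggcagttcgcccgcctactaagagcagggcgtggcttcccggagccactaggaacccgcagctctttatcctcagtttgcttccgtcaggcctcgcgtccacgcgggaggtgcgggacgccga

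Windows were found for 37 of the 43 genes, 49 windows in all. Gclc, Gsr, Gsta4, Gstt2, Hmox1 and Sod3 had no entry. The antioxidant response element core occurred in 7 of the 49 windows (14.3%), those of Gclm, Gsta3, Gstm5, Mgst1, Nfe2l2, Sod1 and Txnrd1, against 4071 of all 32851 windows (12.4%). The direct repeat with 1 spacer base that PPARγ binds with its partner receptor, searched as its consensus on both strands, occurred in 0 of the 49 windows and in 13 of all 32851 (0.0396%). Such matches describe letters in these windows only.

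With pioglitazone, limma called 0 of the 58 member probe sets (9 at an unadjusted p under 0.05); over the array 106 of 11739 probe sets were called (0.903%). Rosiglitazone at 1 µM had 2 members called, a rise of Mgst3 and a fall of Gstm1 (3.45% of 58, against 1.35% of all tested). Troglitazone also had 2 called, a rise of Gsto1 and a fall of Gstm1, against 1.33% of all tested. For the mean of the 3 drugs, 4 members passed: Gsto1, Mgst3 and Hmox1 rose and Gstm1 fell (6.9% of 58, against 2.14% of all tested). These are few calls. At an unadjusted p under 0.05 there were 9, 17 and 11 members in the order pioglitazone, rosiglitazone and troglitazone and 14 for the mean, against 9.85%, 10.5%, 8.32% and 10.5% of all tested probe sets. Each drug comparison uses the same vehicle arrays. The median log2 difference of the members was −0.095 with pioglitazone, −0.036 with rosiglitazone and −0.135 with troglitazone, beside −0.078, 0.00 and −0.028 for all tested probe sets. Half-widths of the 95% interval had a median of 0.848 for pioglitazone and 0.734 for either other drug over the 58 probe sets. Over the 43 genes by brightest probe set the medians were 0.66 and 0.571. These intervals are not adjusted for the number of tests, and smaller changes could not be resolved in many members.

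**Figure D1:**
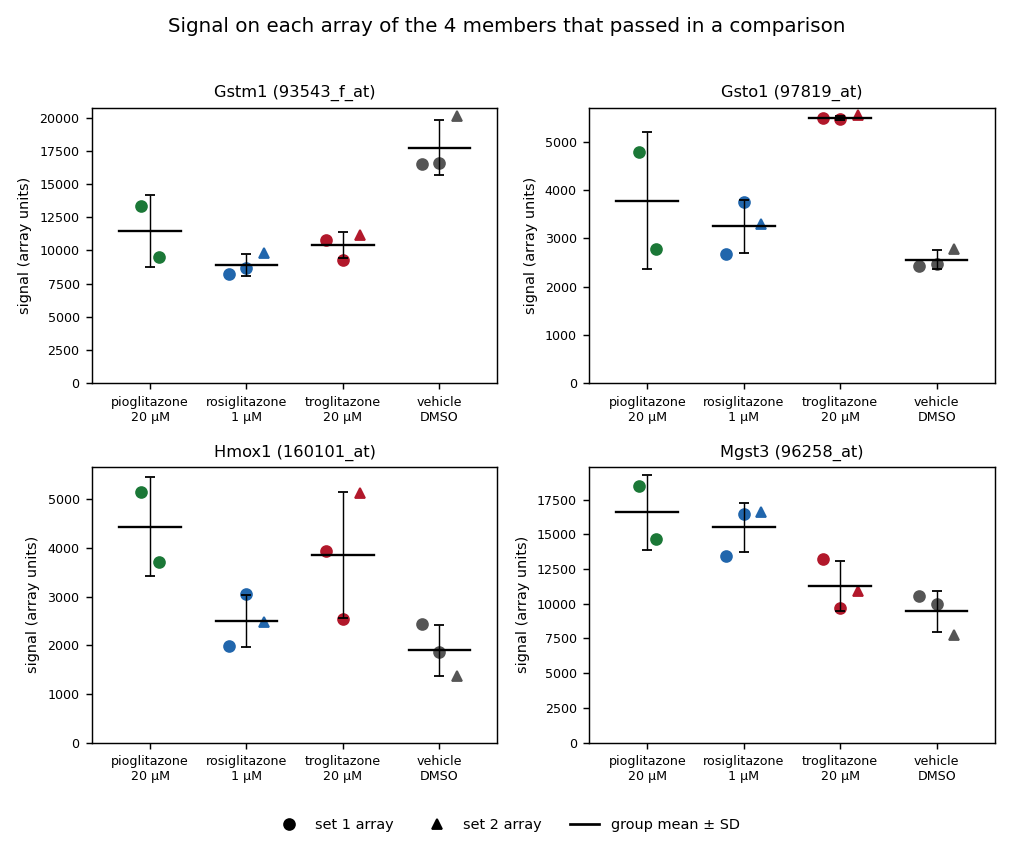
Signal of the 4 members that passed a comparison (Gstm1, Gsto1, Mgst3 and Hmox1) on each of the 11 arrays, by group, with linear axes from 0; circles are set 1, triangles set 2, and lines the mean ± SD. Gstm1 is lower on all 8 drug arrays than on any vehicle array, and Gsto1 is highest on the 3 troglitazone arrays.

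Gstm1, a mu-class glutathione transferase that conjugates electrophiles, was the member that fell. It had signals of 13379.7 and 9517 with pioglitazone, 8225, 8686 and 9780.1 with rosiglitazone and 10803, 9274 and 11153 with troglitazone, against 16481, 16598 and 20158 with vehicle. All 8 drug arrays lay below the lowest vehicle array. The fall was 1.99-fold with rosiglitazone (−0.99 ± 0.135, adjusted p = 0.00104) and 1.70-fold with troglitazone (−0.77 ± 0.135, adjusted p = 0.00674); with pioglitazone the difference was −0.57 ± 0.16 (adjusted p = 0.128), and for the mean of the drugs −0.78 ± 0.11 (adjusted p = 0.0011). Within set 1 the rosiglitazone and troglitazone differences were −0.968 and −0.725 (2 arrays against 2), and within set 2 they were −1.04 and −0.854 (1 array against 1); within set 1 the pioglitazone difference was −0.552. The rosiglitazone call and the call for the mean of the drugs were kept without any single array. Leaving out vehicle replicate 4 (adjusted p = 0.0757), troglitazone replicate 4 (0.0895) or troglitazone replicate 2 (0.06) ended the troglitazone call. Without pioglitazone replicate 1, which leaves 1 pioglitazone array, the pioglitazone difference was −0.82. In RNA from whole cultures, fewer cells of a type cannot be told apart from less transcript per cell.

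This Gstm1 probe set carries the array maker's mark f, given where probes match several members of a gene family, and so does the brightest probe set of Gstm3 and of Gstm5; their signals cannot be assigned to 1 mu-class gene. A dimmer Gstm1 probe set gave 0.67 with pioglitazone, 0.275 with rosiglitazone and −0.10 with troglitazone, and none passed. All 5 mu-class genes measured are on chromosome 3. The estimate of the brightest probe set was negative for all 5 in each drug comparison, although only Gstm1 passed. Because of the mark f these are not 5 separate readings. Of all 43 member genes 19, 20 and 18 had positive estimates with pioglitazone, rosiglitazone and troglitazone. The dimmer Gstm5 probe sets ran from −0.46 to 0.35, −0.72 to 0.25 and −0.34 to 0.15 in that order. Without pioglitazone replicate 2 and rosiglitazone replicate 2 together Gstm5 was at 0.01 with pioglitazone. Without vehicle replicate 2 Gstm6 was at 0.17 with pioglitazone. Gstm2, a close relative, had signals of 454 and 333 with pioglitazone, 411, 481 and 331 with rosiglitazone and 212, 457 and 508 with troglitazone, against 602, 932 and 1038 with vehicle. All 8 drug arrays were again below the vehicle arrays. The differences of Gstm2 were −1.02 ± 0.45, −1.05 ± 0.39 and −1.19 ± 0.39 in the order pioglitazone, rosiglitazone and troglitazone (adjusted p = 0.458, 0.297 and 0.247). Its dimmer probe set was at −0.58, 0.34 and 0.59 in the same order.

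Gstm3 had signals of 1872 and 1507 with pioglitazone, 1668, 898 and 1510.4 with rosiglitazone and 1620.2, 1985 and 1813 with troglitazone, against 2054, 2371 and 2110.5 with vehicle, with the drug arrays below the vehicle arrays and differences of −0.34, −0.73 and −0.27 that did not pass (−0.44 with rosiglitazone when its replicate 2 is left out). Gstm5 ranged from 2670.2 to 3484 with pioglitazone, 1914 to 2745 with rosiglitazone and 2475 to 2819 with troglitazone, against 3072 to 4238 with vehicle. The pioglitazone range of Gstm5 overlaps the vehicle range and the other 2 do not; its differences were −0.20, −0.58 and −0.45, with none passing. Gstm6 was dim and partly under the floor, at −0.38, −0.60 and −0.71. The summed signal of 11 of 12 markers of preadipocytes and fibroblasts was lower on every drug array too: 7260 to 7474 with pioglitazone, 7951 to 9368 with rosiglitazone and 5592 to 8489 with troglitazone, against 11725 to 12673 with vehicle, and 0 of the 11 lay at the floor on all arrays. Positive estimates numbered 0, 3 and 2 of the 11 with pioglitazone, rosiglitazone and troglitazone. Falls passed for 1, 1 and 3, against 0.273%, 0.571% and 0.554% of all tested probe sets. The summed signal of 10 of 12 adipocyte markers overlapped between each drug and vehicle. In vehicle the brightest of these were Adipoq and Lpl (means 46880 and 23200), which weigh most in the sum. Of these 10, 1, 2 and 2 fell, and 1 rose with each drug, against rises of 0.63%, 0.784% and 0.775% of all tested. Pparg, the gene of PPARγ, fell with each drug (−1.93, −1.43 and −1.89), and Retn with rosiglitazone and troglitazone (−0.835 and −1.68). Cidec rose with each (1.43, 1.16 and 1.065). The part of either cell type in the Gstm results was not tested.

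**Figure D2:**
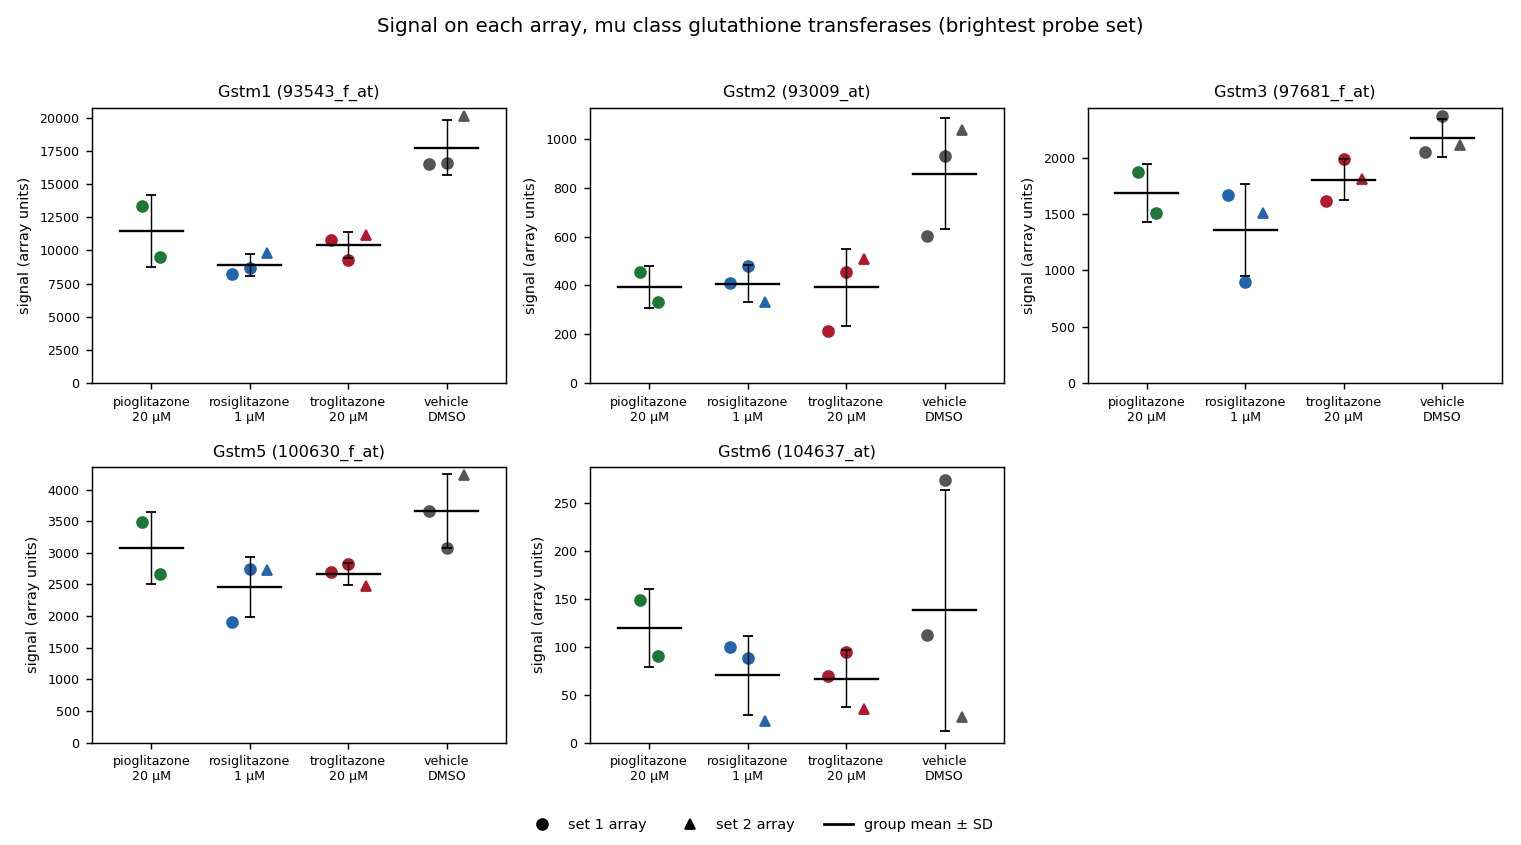
Signal of the brightest probe set of each of the 5 mu-class transferases (Gstm1, Gstm2, Gstm3, Gstm5, Gstm6) on each array by group, linear axes from 0, circles set 1, triangles set 2, lines mean ± SD. For Gstm1, Gstm2 and Gstm3 every drug array is below every vehicle array; Gstm6 overlaps between groups.

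Gsto1, the omega-class transferase that reduces dehydroascorbate and mixed disulphides with glutathione, was the member that rose with troglitazone. It had signals of 4786 and 2776 with pioglitazone, 2678, 3765 and 3303 with rosiglitazone and 5493, 5466 and 5551 with troglitazone, against 2428, 2461 and 2783 with vehicle. The 3 troglitazone arrays lay above all 8 others and close to each other, pioglitazone replicate 1 came next, and pioglitazone replicate 2 and rosiglitazone replicate 1 lay inside the vehicle range. The rise with troglitazone was 2.16-fold (1.11 ± 0.19, adjusted p = 0.00489), and it was kept without any single array (adjusted p = 0.00171 to 0.0471). It was 1.16 within set 1 and 0.996 within set 2. The difference was 0.54 ± 0.22 with pioglitazone (adjusted p = 0.389) and 0.33 ± 0.19 with rosiglitazone (0.583), neither of which passed. Without pioglitazone replicate 2 and rosiglitazone replicate 2 together, which leaves 1 pioglitazone array, the pioglitazone difference was 0.96. For the mean of the drugs Gsto1 rose 1.58-fold (0.66 ± 0.16, adjusted p = 0.0392), a call kept only without pioglitazone replicate 2 or rosiglitazone replicate 1 and lost without each of the other 9 arrays (0.0598 to 0.235).

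Mgst3, a membrane-bound transferase that also reduces lipid hydroperoxides, was the member that rose with rosiglitazone. It had signals of 18478 and 14688 with pioglitazone, 13437, 16450.4 and 16602 with rosiglitazone and 13203, 9683 and 10927 with troglitazone, against 10590.5, 10003 and 7747 with vehicle. The pioglitazone and rosiglitazone arrays were all above the vehicle arrays, while the troglitazone arrays overlapped them. The rise with rosiglitazone was 1.65-fold (0.72 ± 0.16, adjusted p = 0.0356), 0.531 within set 1 and 1.10 within set 2. It was kept only without pioglitazone replicate 1 or troglitazone replicate 2, and without each of the other 9 arrays the adjusted p was 0.0501 to 0.243. With pioglitazone the difference was 0.78 ± 0.18 (adjusted p = 0.0627) and with troglitazone 0.26 ± 0.16 (adjusted p = 0.766). For the mean of the drugs it rose 1.5-fold (0.59 ± 0.13, adjusted p = 0.0294), and this call was lost without any of 8 arrays (0.0628 to 0.286), all except pioglitazone replicate 2, rosiglitazone replicate 1 and troglitazone replicate 2. A dimmer Mgst3 probe set was at 0.32, 0.365 and −0.21 in the same order of drugs, none passing.

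Of the other 14 transferase genes none passed. The median over all 17 was −0.311 with pioglitazone, −0.321 with rosiglitazone and −0.295 with troglitazone, with 5, 9 and 5 genes at an unadjusted p under 0.05, against 9.85%, 10.5% and 8.32% of all tested probe sets. Gstp1, the pi-class enzyme, had signals of 14784 and 15263 with pioglitazone, 11666, 9411 and 15663 with rosiglitazone and 13545, 13428 and 18562 with troglitazone, against 12953, 13508 and 19141 with vehicle, and the groups overlapped (0.18, −0.32 and 0.00). Gstz1, which also acts in tyrosine breakdown, had signals of 5056 and 7776 with pioglitazone, 5328, 6534 and 6126 with rosiglitazone and 5923, 8398 and 5949 with troglitazone, against 8438, 10257 and 6868 with vehicle. Its 3 rosiglitazone arrays lay below the vehicle range, at −0.49 ± 0.185 (adjusted p = 0.311), and it was at −0.49 with pioglitazone and −0.335 with troglitazone.

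Mgst1, the microsomal transferase, had signals of 5799.7 and 9625 with pioglitazone, 8690.5, 7450.3 and 8979 with rosiglitazone and 7243, 6942 and 7947 with troglitazone, against 8132, 11222 and 7738 with vehicle, overlapping between groups (−0.25, −0.09 and −0.27). Gsta4, the alpha-class enzyme for aldehydes from lipid peroxidation, had signals of 351 and 362 with pioglitazone, 372, 400.3 and 514 with rosiglitazone and 277, 201 and 505 with troglitazone, against 328, 399.5 and 564 with vehicle; its differences were 0.00, 0.02 and −0.47. Neither gene separated any drug from vehicle. The theta-class Gstt1 had signals of 138 and 129 with pioglitazone, 142, 148 and 49.7 with rosiglitazone and 228, 57.4 and 51.0 with troglitazone, against 305, 288 and 175 with vehicle. Its pioglitazone and rosiglitazone arrays all lay below the vehicle arrays, with differences of −1.18 ± 0.61, −1.10 ± 0.53 and −1.21 ± 0.53 (adjusted p = 0.574, 0.492 and 0.544); values under the floor count as the floor there. The alpha-class Gsta3 had 77.0 to 188 with rosiglitazone, against 283 to 402 with vehicle, ranges that do not overlap, at −1.39 ± 0.61 (adjusted p = 0.417). Gsta1, Gsta2, Gstt2 and Mgst2, at times under the floor, overlapped between each drug and vehicle, and none passed.

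Glutathione synthesis starts with glutamate-cysteine ligase, whose catalytic subunit is Gclc and whose modifier subunit is Gclm; of the 4 genes of synthesis and reduction none passed. Gclm had signals of 2013 and 2205 with pioglitazone, 1345, 1260.5 and 1816 with rosiglitazone and 2089, 1602 and 2304 with troglitazone, against 2212, 1951 and 2300.5 with vehicle. The rosiglitazone arrays all lay below the vehicle arrays, with a difference of −0.56 ± 0.17 (unadjusted p = 0.00443, adjusted p = 0.16); the other drugs were at 0.08 and −0.12. Gclc had signals of 409.7 and 424 with pioglitazone, 697, 477 and 307 with rosiglitazone and 901, 563 and 435 with troglitazone, against 338, 471 and 302 with vehicle, with troglitazone replicates 1 and 2 above the vehicle range and replicate 4 inside it. Its differences were −0.03 ± 0.39, 0.36 ± 0.34 and 0.73 ± 0.34 (adjusted p = 0.992, 0.757 and 0.595).

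Gss, which adds glycine, had signals of 875 and 465 with pioglitazone, 397, 597 and 377 with rosiglitazone and 582, 781 and 432 with troglitazone, against 1062, 474 and 401 with vehicle, and vehicle alone spanned most of that range (−0.08, −0.39 and −0.01). Gsr, the reductase that returns oxidised glutathione to its thiol form, had signals of 1861 and 1254 with pioglitazone, 1642, 676 and 988 with rosiglitazone and 1270.0, 1360.0 and 1211 with troglitazone, against 1525, 1774 and 1534 with vehicle. All 3 troglitazone arrays of Gsr were below the vehicle arrays, yet its differences of −0.11 ± 0.31, −0.64 ± 0.27 and −0.33 ± 0.27 did not pass (adjusted p = 0.97, 0.396 and 0.862). Its lowest array was rosiglitazone replicate 2, without which the rosiglitazone difference of Gsr was −0.29.

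Among the 6 glutathione peroxidases none passed, and the family medians were −0.355 with pioglitazone, −0.42 with rosiglitazone and −0.128 with troglitazone. Gpx1, the main cytosolic selenoenzyme, had signals of 579 and 584 with pioglitazone, 419.5, 526 and 489.6 with rosiglitazone and 669, 572 and 582 with troglitazone, against 630.0, 808 and 798 with vehicle. The pioglitazone and rosiglitazone arrays were below the vehicle arrays, and troglitazone overlapped them (−0.33 ± 0.31, −0.64 ± 0.27 and −0.29 ± 0.27; adjusted p = 0.811, 0.389 and 0.886). Gpx4, which reduces peroxidised phospholipids in membranes, had signals of 2019.7 and 3202 with pioglitazone, 2711, 2215 and 3161 with rosiglitazone and 3177, 3271 and 3147 with troglitazone, against 3452, 3186 and 3634 with vehicle. Only its rosiglitazone arrays were all below vehicle, at −0.36 ± 0.18 (adjusted p = 0.509), beside −0.375 with pioglitazone and −0.10 with troglitazone. The secreted enzyme Gpx3 had signals of 224 and 70.5 with pioglitazone, 189, 101 and 46.9 with rosiglitazone and 365, 164 and 28.9 with troglitazone, against 322, 125 and 95.3 with vehicle, so 3 of its arrays were under the floor and replicates of 1 group spread more than the groups. Gpx7, an enzyme of the endoplasmic reticulum, was at −0.53, −1.08 and −1.06 in the order of drugs above (adjusted p = 0.782, 0.288 and 0.359), with part of its values under the floor. Gpx2 and Gpx5 lay between −0.16 and 0.31 in the 3 comparisons for their brightest probe sets.

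The thioredoxin system and the peroxiredoxins it serves gave 9 genes, of which none passed; their medians were 0.141 with pioglitazone, 0.174 with rosiglitazone and 0.091 with troglitazone. Txnrd1, the cytosolic thioredoxin reductase and a known NRF2 target, had signals of 688 and 746 with pioglitazone, 690.3, 662 and 711 with rosiglitazone and 1000.0, 883 and 821 with troglitazone, against 461, 645 and 663 with vehicle. The pioglitazone and troglitazone arrays were all above vehicle, and rosiglitazone touched its upper end. The differences were 0.32 ± 0.29, 0.24 ± 0.25 and 0.63 ± 0.25 (adjusted p = 0.806, 0.784 and 0.453). Txn1, cytosolic thioredoxin itself, had signals of 5569 and 6737 with pioglitazone, 5389, 5023 and 9636 with rosiglitazone and 4317, 4668 and 7022 with troglitazone, against 6202, 6817 and 8380.1 with vehicle. Each troglitazone array was below the vehicle array of the same set, although the ranges overlapped, and the difference of −0.44 ± 0.14 did not pass (adjusted p = 0.226). With pioglitazone and rosiglitazone Txn1 was at 0.00 and −0.15.

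In mitochondria, Txn2 is the thioredoxin, Txnrd2 its reductase and Prdx3 the peroxiredoxin. Prdx3 had signals of 4145 and 4904 with pioglitazone, 3591, 4747 and 4944 with rosiglitazone and 3817, 3025 and 3686 with troglitazone, against 2944, 3034 and 3946 with vehicle, with both pioglitazone arrays above the vehicle range. Its differences were 0.55 ± 0.18, 0.42 ± 0.15 and 0.09 ± 0.15 (adjusted p = 0.233, 0.297 and 0.959). Txn2 had signals of 5069 and 4194 with pioglitazone, 3647, 4651 and 3935 with rosiglitazone and 4219.5, 3724 and 3394 with troglitazone, against 3742, 3832 and 2584 with vehicle; both pioglitazone arrays were again above the vehicle arrays, at 0.375 ± 0.18 (adjusted p = 0.518), beside 0.28 and 0.175 for the other drugs. Txnrd2 had signals of 389 and 357 with pioglitazone, 480.5, 426 and 266 with rosiglitazone and 346, 366 and 427 with troglitazone, against 153, 489.5 and 506 with vehicle, and vehicle alone spread from 153 to 506 around differences of 0.19, 0.17 and 0.17.

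Prdx2, a cytosolic peroxiredoxin, had signals of 11742 and 12988 with pioglitazone, 11354, 11921 and 16622 with rosiglitazone and 11124, 11202 and 14879 with troglitazone, against 11580.5, 12545 and 17801 with vehicle. The values followed the set more than the drug, and the differences were 0.01 ± 0.13, −0.07 ± 0.11 and −0.16 ± 0.11, intervals of −0.26 to 0.29, −0.305 to 0.17 and −0.40 to 0.08. Txnip, which binds thioredoxin and restrains glucose uptake, had signals of 5114 and 4444 with pioglitazone, 5554, 3550.4 and 5812 with rosiglitazone and 4607, 5743 and 7363 with troglitazone, against 4319, 5014 and 4577 with vehicle, which overlapped (0.14, 0.07 and 0.325). For Prdx4, the peroxiredoxin of the endoplasmic reticulum, the rosiglitazone arrays (98 to 451) and the troglitazone arrays (406 to 534) lay below vehicle (537 to 711), at −1.245 ± 0.48 and −0.33 ± 0.48, neither of which passed. Without rosiglitazone replicate 2, its lowest array, the rosiglitazone difference of Prdx4 was −0.56. Txnrd3, a reductase best known from testis, varied between 801 and 5094 and overlapped between groups. Its differences were 0.03, 0.83 ± 0.29 and 0.02 in the order pioglitazone, rosiglitazone and troglitazone. Without rosiglitazone replicate 2, its highest array, the rosiglitazone difference of Txnrd3 was 0.55. A dimmer Txnrd3 probe set, partly under the floor, was at 0.03, 0.775 and 1.04, and neither probe set passed.

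**Figure D3:**
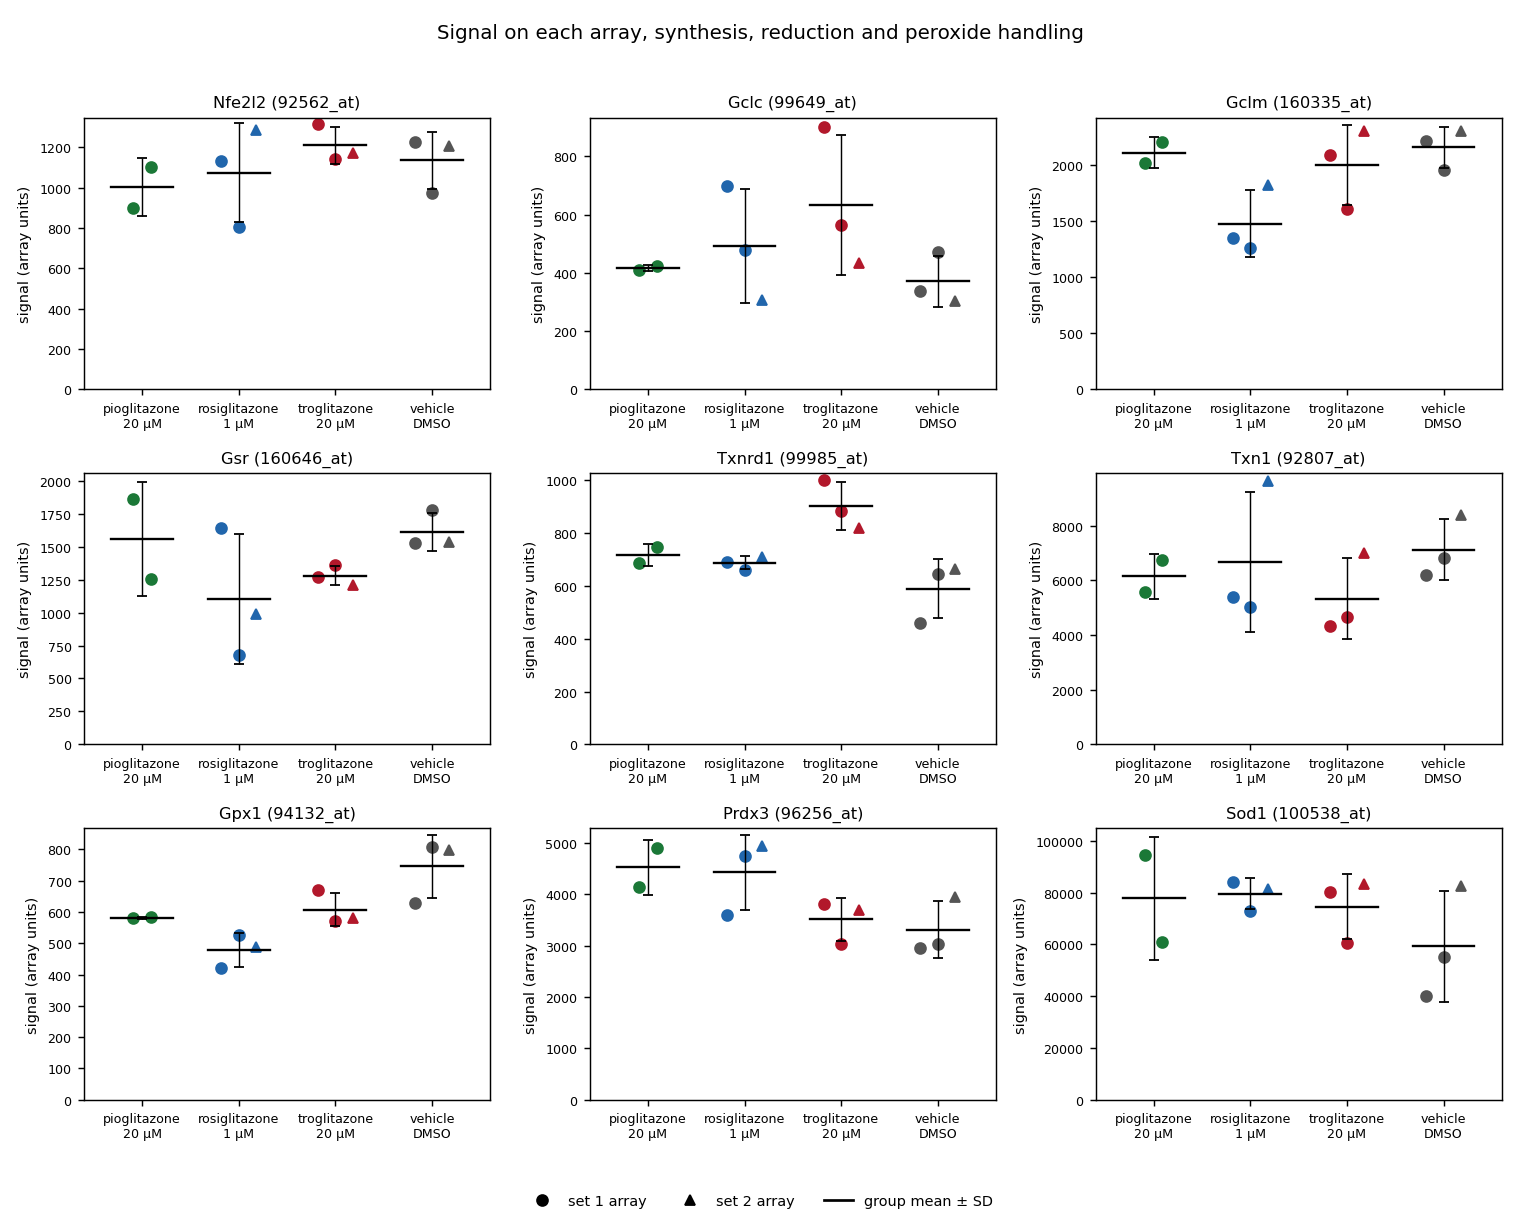
Signal of Nfe2l2, Gclc, Gclm, Gsr, Txnrd1, Txn1, Gpx1, Prdx3 and Sod1 (brightest probe set each) on each array by group, linear axes from 0, circles set 1, triangles set 2, lines mean ± SD. None of the 9 passed in any comparison; troglitazone arrays of Txnrd1 (821 to 1000) sit above vehicle (461 to 663).

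The superoxide dismutases turn superoxide into hydrogen peroxide, and none of the 3 passed. Cytosolic Sod1 had signals of 94579 and 60953 with pioglitazone, 84189, 72887 and 81509.7 with rosiglitazone and 80095, 60332 and 83282 with troglitazone, against 40083, 55253 and 82366 with vehicle. The drug arrays overlapped the vehicle arrays, whose 3 values already spread widely, and the differences were 0.55 ± 0.23, 0.485 ± 0.20 and 0.38 ± 0.20 (adjusted p = 0.427, 0.367 and 0.675). Mitochondrial Sod2 had signals of 1333 and 1854 with pioglitazone, 1823, 1104 and 2060.4 with rosiglitazone and 948, 1142 and 1649 with troglitazone, against 1236, 1221 and 1138 with vehicle. Both pioglitazone arrays of Sod2 were above the vehicle arrays, and it was at 0.51 ± 0.275, 0.42 ± 0.24 and 0.02 ± 0.24 (adjusted p = 0.591, 0.583 and 1). Extracellular Sod3 had signals of 1379.5 and 1282 with pioglitazone, 1438, 1375 and 922 with rosiglitazone and 1394, 1009 and 1122 with troglitazone, against 1510.4, 1189.8 and 1027 with vehicle, and its differences lay between −0.075 and −0.002.

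Hmox1, the inducible oxygenase that breaks heme into biliverdin, iron and carbon monoxide, had signals of 5157 and 3719.5 with pioglitazone, 1985, 3042 and 2468 with rosiglitazone and 3934, 2531 and 5118 with troglitazone, against 2438, 1860.1 and 1376 with vehicle. All pioglitazone and troglitazone arrays were above the vehicle arrays, the lowest troglitazone array only narrowly, and rosiglitazone overlapped vehicle. For the mean of the drugs Hmox1 rose 1.86-fold (0.90 ± 0.22, adjusted p = 0.0496); singly it was at 1.26 ± 0.30 with pioglitazone (adjusted p = 0.0738), 0.42 ± 0.26 with rosiglitazone (0.631) and 1.01 ± 0.26 with troglitazone (0.0934). The call for the mean was kept only without troglitazone replicate 2 (adjusted p = 0.0204), where the troglitazone difference also passed (1.31, adjusted p = 0.0347), and was lost without each of the other 10 arrays (0.0614 to 0.38). With the replicate number as a block in place of the set its adjusted p was 0.0546. The troglitazone difference was 0.567 within set 1 and 1.90 within set 2, apart by 1.33 ± 0.52 (unadjusted p = 0.0313, adjusted p = 1). Hmox1 is abundant in macrophages, and the summed signal of 8 of 10 macrophage markers overlapped between groups: 2683 to 4172 with pioglitazone, 1522 to 4169 with rosiglitazone and 1544 to 2872 with troglitazone, against 2108 to 3842 with vehicle. Of the 8, Cd14 fell with troglitazone (−1.49, adjusted p = 0.0246) and for the mean of the drugs (−1.07, adjusted p = 0.0459), and 0 rose. In vehicle the sum came mostly from Cd14 (mean 1283) and Csf1r (1270), the other markers lying between 48.0 (Adgre1) and 182 (Fcgr3). 3T3-L1 is a single fibroblast line, and any part of macrophages in the Hmox1 result was not tested.

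Hmox2, the constitutive oxygenase, had signals of 422 and 348 with pioglitazone, 396, 241 and 446 with rosiglitazone and 493, 242 and 317 with troglitazone, against 458, 427 and 429 with vehicle; both pioglitazone arrays were below the vehicle arrays, the other drugs overlapped them, and the differences were −0.15, −0.325 and −0.38. Nfe2l2, which encodes NRF2 and is controlled largely at the protein level, had signals of 899.6 and 1103 with pioglitazone, 1129.9, 804 and 1287 with rosiglitazone and 1315, 1143 and 1172 with troglitazone, against 1228, 974 and 1206 with vehicle. Its groups overlapped, at −0.125 ± 0.25, −0.10 ± 0.22 and 0.10 ± 0.22, with intervals of −0.665 to 0.41, −0.57 to 0.37 and −0.37 to 0.56. Nqo1, a quinone reductase and textbook NRF2 target, was dim, with signals of 62.7 and 90.3 with pioglitazone, 62.4, 374 and 158 with rosiglitazone and 114, 193 and 59.7 with troglitazone, against 128, 157 and 129 with vehicle. Both pioglitazone arrays lay below the vehicle arrays, at −0.89 ± 0.67 (adjusted p = 0.744), the other drugs overlapped vehicle, at 0.25 and −0.22, and neither Nqo1 probe set passed.

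Troglitazone and pioglitazone were given at the same dose and time, so their difference was tested; this is the 1 matched pair. Of the 58 members limma called 0, and 4 of all 11739 probe sets were called (0.0341%). At an unadjusted p under 0.05 there were 4 members, against 6.35% of all tested. Gsto1 was higher with troglitazone in estimate, by 0.565 ± 0.22 (interval 0.10 to 1.03, adjusted p = 0.654), and all 3 troglitazone arrays lay above both pioglitazone arrays. Mgst3 was lower with troglitazone in estimate, at −0.53 ± 0.18 (interval −0.92 to −0.135, adjusted p = 0.618), as were Prdx3, at −0.455 ± 0.18 (interval −0.835 to −0.08, adjusted p = 0.655), and Txn1, at −0.44 ± 0.16 (interval −0.79 to −0.10, adjusted p = 0.636). For Mgst3 and Prdx3 every troglitazone array was below both pioglitazone arrays, and for Txn1 the ranges overlapped. For Gstm1 the interval was −0.53 to 0.14 and for Hmox1 −0.90 to 0.40. These intervals leave room for differences in either direction for Gstm1 and Hmox1, so the drugs are not shown to act alike. Rosiglitazone was given at a lower dose, and its values stand beside the others with no test between them.

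**Figure D4:**
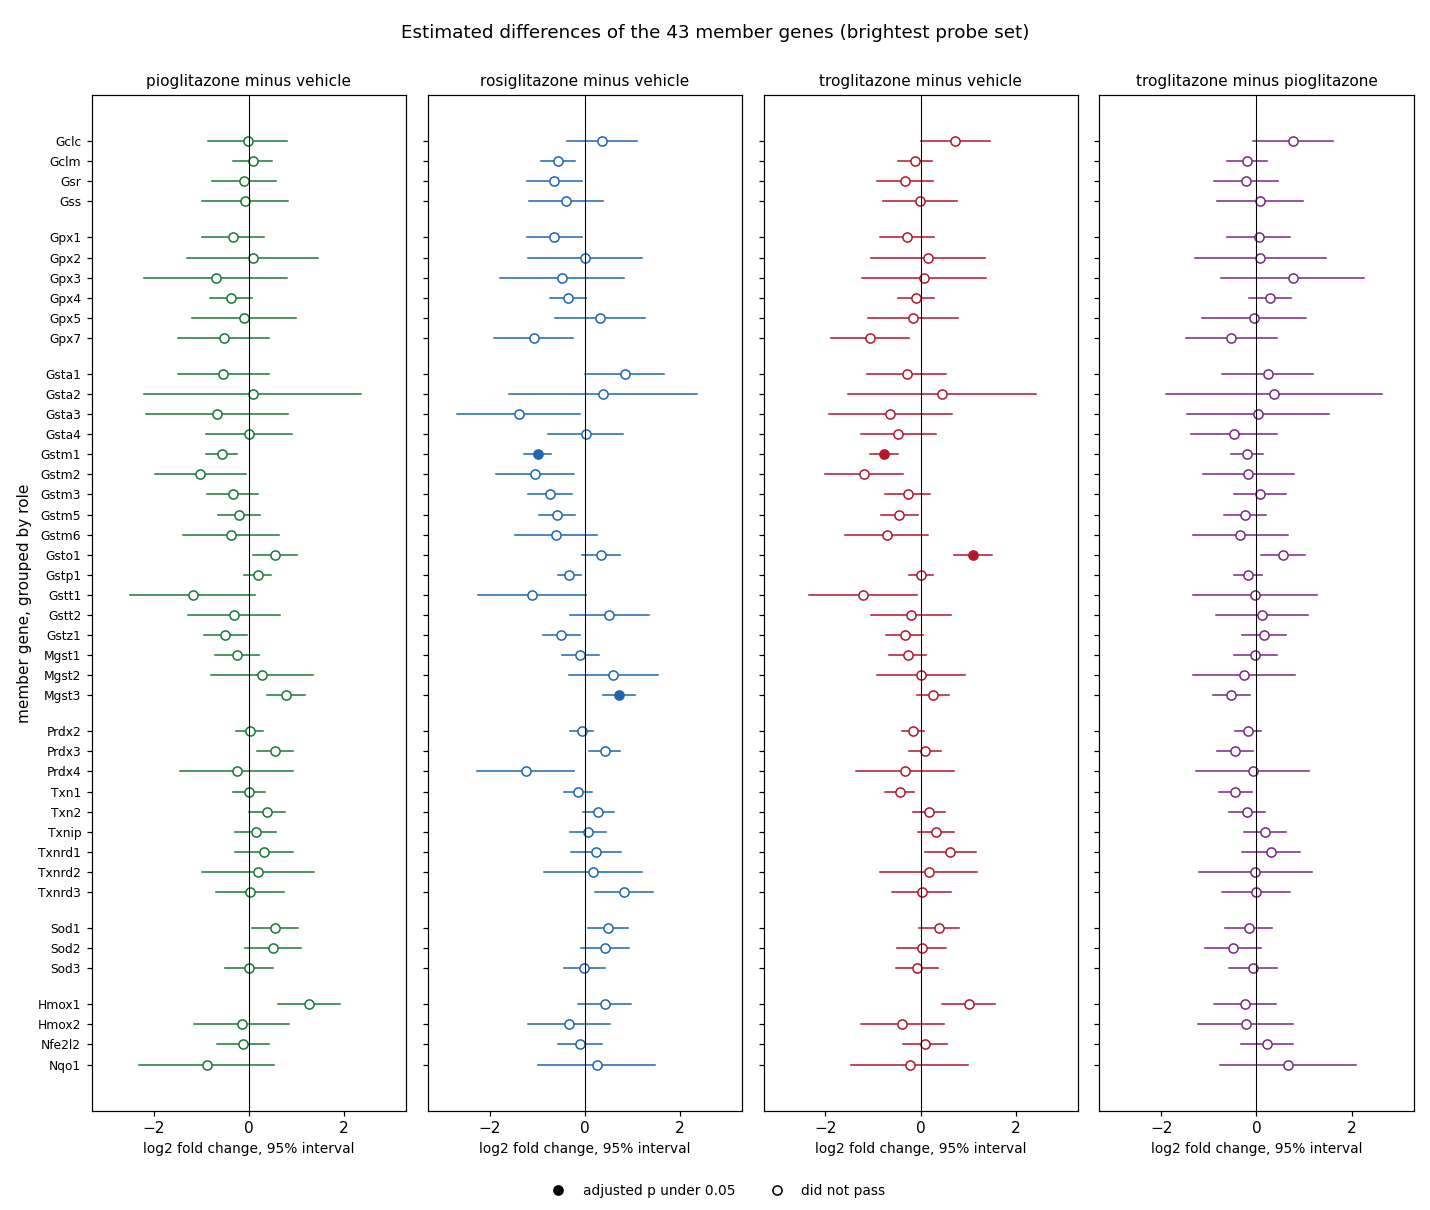
Log2 difference of the 43 member genes (brightest probe set) for pioglitazone, rosiglitazone and troglitazone minus vehicle and for troglitazone minus pioglitazone, with 95% intervals; filled points passed. Filled points are Mgst3 and Gstm1 with rosiglitazone and Gsto1 and Gstm1 with troglitazone, and most other intervals cross 0.

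Whether the rosiglitazone and troglitazone effects differed between the sets was tested with a mean per group and set. Limma called 0 of the 58 members in either test, and 0 of all tested probe sets (0%). At an unadjusted p under 0.05 there were 2 members in each, against 3.72% of all tested for rosiglitazone and 2.45% for troglitazone. For the rosiglitazone effect these 2 were Gpx7, at 1.615 ± 0.64, and the dimmer Gstm2 probe set, at −3.765 ± 0.88; for troglitazone they were Gpx7, at 1.60 ± 0.64, and Hmox1. All 3 set 2 arrays of Gpx7 were under the floor, which fixes its set 2 differences at 0, so its values here only restate those within set 1 (−1.615 with rosiglitazone and −1.597 with troglitazone).

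Genes around the members were read from the same fit. Among 22 tested regulators and targets of NRF2 that are not members, Cbr3, a carbonyl reductase, rose in each drug comparison: 1.62 ± 0.17 with pioglitazone (adjusted p = 0.000199), 1.16 ± 0.15 with rosiglitazone (0.000791) and 1.41 ± 0.15 with troglitazone (8.81e-05). Akr7a5, an aldehyde reductase, and Fth1, the ferritin heavy chain that stores iron, fell with rosiglitazone (−0.82 ± 0.16, adjusted p = 0.0178, and −0.62 ± 0.12, adjusted p = 0.0182). Both of these calls were lost without vehicle replicate 1, 2 or 4 or rosiglitazone replicate 1 or 2, to adjusted p of 0.0692 to 0.101 for Akr7a5 and 0.0614 to 0.141 for Fth1. For the mean of the drugs the same 3 genes of this list passed, Cbr3 without any single array, Akr7a5 in 5 of 11 and Fth1 in 2 of 11 such omissions. Calls in this list were 1, 3 and 1 of 22 in the order of drugs above, against 0.903%, 1.35% and 1.33% of all tested probe sets. For the mean they were 3 of 22, against 2.14%. The list's medians were −0.049, 0.094 and 0.031 in the same order.

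Of 12 sources of superoxide and peroxide, Ero1a, an oxidase of the endoplasmic reticulum that releases hydrogen peroxide, rose with troglitazone (1.46 ± 0.14, adjusted p = 3.05e-05). Among the single drugs it passed with troglitazone only. The troglitazone minus pioglitazone difference of Ero1a was 1.40 ± 0.16 (adjusted p = 0.00148). That call was lost without pioglitazone replicate 1, which leaves 1 array of that drug. Xdh, xanthine dehydrogenase, fell with pioglitazone (−1.87 ± 0.41, adjusted p = 0.0456), a call kept only without rosiglitazone replicate 2 (0.0427) and lost without each of the other 10 arrays (up to 0.213). For the mean of the drugs Ero1a rose (0.69 ± 0.115, adjusted p = 0.00344; lost without vehicle replicate 4, 0.0648, or 2, 0.0514), and Xdh fell (−1.39 ± 0.30, adjusted p = 0.0206; lost without 5 of 11 arrays, up to 0.21). Calls among the 12 were 1 with pioglitazone, 0 with rosiglitazone and 1 with troglitazone, against 0.903%, 1.35% and 1.33% of all tested probe sets. For the mean they were 2, against 2.14%, and between troglitazone and pioglitazone 1, against 0.0341%. The medians of this list were −0.059, 0.112 and −0.203 for the 3 drugs.

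Limma called 0 of 11 genes of cysteine and glutathione supply, of 11 of NADPH supply, of 16 other genes for peroxides, disulphides and methionine sulphoxide and of 11 selenoprotein genes, in each drug comparison, for the mean of the drugs and between troglitazone and pioglitazone. At an unadjusted p under 0.05 there were 1, 1 and 0 supply genes, 2, 4 and 1 NADPH genes, 4, 4 and 3 peroxide and disulphide genes and 0, 1 and 1 selenoprotein genes in the order of drugs above, where all tested probe sets had 9.85%, 10.5% and 8.32% (and 0.903%, 1.35% and 1.33% called). Their medians lay between −0.326 and 0.104 in the single-drug comparisons.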

How the data were processed

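Total RNA of 11 samples of 3T3-L1 cells was measured on 1-colour oligonucleotide arrays of 12488 probe sets, 66 of them array controls. The deposited table holds linear signal intensities from 0.4 to 224475; the authors had scaled them, as the mean after trimming 2% at each end was 500.3 to 500.4 on every array. The array software is not given in the sources used here. Values were kept as deposited, raised to a floor of 73.7 (the 25th percentile), put on a log2 scale, and tested where above the floor on at least 2 arrays (11739 probe sets). The number of arrays limits the precision.

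Probe sets were named from the platform annotation (10833 with 1 gene, 396 with several, 1193 with none), and all 59 members matched the RefSeq gene table by gene ID. Thioredoxin members were read as Txn1, Txn2, the reductases and Txnip. A gene is represented by its brightest tested probe set. limma 3.58.1 in R 4.3.3 fitted group and set on all 11 arrays (6 residual degrees of freedom, intensity trend, two-sided, Benjamini-Hochberg over all tested probe sets within each comparison); the code was tested on simulated data. Samples were grouped by GEO labels.

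Genes given array by array were those that passed a comparison and a list of core genes of each family (Prdx1, Prdx5 and Prdx6 not analysed here), other mu-class genes being added after their values were seen; related lists are given by counts, with the members that passed. Members, lists and tests were chosen with earlier results of these data known. Alternatives changed the scaling, floor, filter, set term, variance model, arrays fitted, actin covariate and block, and left out each array.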

Additional observations from a re-analysis of the deposited data

How the results depend on the processing

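The numbers of members called were 0 with pioglitazone, 2 with rosiglitazone, 2 with troglitazone and 4 for the mean of the drugs. With quantile normalisation the pioglitazone count was 1 (Gstm1 fell, adjusted p = 0.0074) and the mean count 1, and rosiglitazone had 0 higher and 2 lower (Gstm1 and Gstp1), against 1 and 1; with median centring the pioglitazone count was 2 (Hmox1 and Mgst3) and the rosiglitazone count 1; a constant of 50 in place of the floor gave 1 with pioglitazone. Without a filter the counts were 1 with rosiglitazone, 0 with troglitazone and 1 for the mean. Without the set term they were 0, 1 and 1, in set 1 alone 0, 0 and 0, and without an intensity trend 0, 0 and 0. A fit of only the groups compared, not possible for the mean, gave 1 with rosiglitazone and 1 with troglitazone. Rosiglitazone replicate 2, the array least correlated with the rest, and pioglitazone replicate 2, with the highest actin ratio, were also left out together. That leaves 1 pioglitazone array, and Gsto1 was then at 0.96 with pioglitazone. The counts were 1 with rosiglitazone and 2 for the mean. With the actin ratio as a covariate the count was 1 with rosiglitazone. Leaving out each array in turn gave 0 to 1, 1 to 2, 1 to 2 and 1 to 3 in the opening order, and 0 throughout between troglitazone and pioglitazone and between the sets. A fit without 1 of the pioglitazone arrays leaves 1 array of that drug. The cause of these shifts was not tested. Set 1 alone has fewer arrays.

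Deviations of same-numbered arrays from their group means correlated at −0.099 to 0.362. The 3 of 15 pairs over 0.1 were the replicate 4 pairs, which are also set 2; no pair of replicates 1 or 2 exceeded 0.1. The numbers were therefore not treated as pairs. With the replicate number as a block the counts were 0, 2, 2 and 3, and 0 between troglitazone and pioglitazone. The Gstm1 fall with rosiglitazone was kept in 21 of 24 alternatives and the Gsto1 rise with troglitazone in 21 of 24, against 16 for Gstm1 with troglitazone and 6 for Mgst3 with rosiglitazone; no called member changed sign. Median centring moved the median of all probe sets with pioglitazone to 0.106, against −0.078. Falls of dim members are limited by the floor.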
